A study of Mus musculus with 8 samples.

Results

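The antioxidant enzymes are 10 mouse genes whose products remove superoxide, hydrogen peroxide or lipid peroxides or return oxidized thiols to their reduced state. They were *Sod1*, *Sod2*, *Cat*, *Gpx1*, *Gpx4*, *Prdx3*, *Prdx5*, *Txn2*, *Txnrd2* and *Glrx2*, taken by name, and every probe other than a control whose RefSeq accession belongs to 1 of them was counted as theirs. This gave 13 probes for 10 of the 20660 genes that could be named on the array. *Cat* had 2 probes, *Glrx2* had 3, and each of the other 8 genes had 1. All 13 probes passed the filter on dim probes in both muscles.

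Superoxide dismutases turn superoxide, which the respiratory chain releases, into hydrogen peroxide. Catalase, glutathione peroxidases and peroxiredoxins then break down hydrogen peroxide or lipid peroxides, and the thioredoxin and glutaredoxin systems supply reducing power that comes from NADPH. In skeletal muscle, fibres rich in mitochondria are known to hold more of several of these enzymes than fibres that live mainly from glycolysis.

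Transcripts were measured in gastrocnemius and tibialis anterior (TA) muscle of male C57BL6 mice of 8 to 16 weeks, either wild type (WT) or heterozygous for an inactivated allele of *Eif6*, the gene of eukaryotic translation initiation factor 6 (*Eif6*+/-). Each of 8 arrays, 4 per muscle, held the labelled RNA of 1 *Eif6*+/- mouse (Cy5) and of 1 WT littermate (Cy3), matched at random, and pair numbers only name the arrays of a muscle. All arrays had the dyes the same way round and gastrocnemius filled 1 row of the slide and TA the other, so that dye and genotype cannot be told apart, and neither can muscle and slide row be told apart. Levels are log2 intensities after normalization over all 16 channels, a log2 ratio is the *Eif6*+/- level minus the WT level on an array, and a gene is called where limma gives a Benjamini-Hochberg adjusted p under 0.1 over all kept probes. Of the probes, 38.7% to 48.6% were well above background on each array in each channel, no spot was saturated, and precision is limited by having 4 arrays per muscle. All 7 skeletal muscle markers were well above background in both channels of all 8 arrays.

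*Eif6* itself (probe A_52_P85864) had a level of 10.56, 10.90, 10.65 and 10.65 in WT gastrocnemius and 9.59, 9.75, 9.76 and 9.59 in *Eif6*+/- gastrocnemius. In TA it was 10.67, 10.52, 10.52 and 10.44 in WT and 9.45, 9.49, 9.57 and 9.64 in *Eif6*+/- mice. Every *Eif6*+/- value lay below every WT value in both muscles. Its log2 ratio averaged −1.02 ± 0.11 in gastrocnemius (mean ± SD, n = 4 pairs, limma adjusted p = 0.0241) and −0.999 ± 0.17 in TA (n = 4 pairs, adjusted p = 0.0109). Where the probe lies with respect to the inactivated stretch of *Eif6* is not known. Without gastrocnemius pair 3 or pair 4 the adjusted p in that muscle was 0.121 or 0.156, and no gene was called.

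The question of the genotype comparison was whether transcripts of these enzymes differ between *Eif6*+/- and WT muscle. In gastrocnemius 2 of the 10 members were called (*Sod2* and *Glrx2*), against 15.4% of 12609 genes tested. Both were higher in *Eif6*+/- muscle, where 9.85% of genes were called, and none was lower, where 5.53% were. In TA 2 of the 10 members were called (*Gpx4* and *Prdx5*), against 16.3% of 12381 genes. Both were lower, where 7.29% of genes were called, and none was higher, where 8.98% were. These shares lie near the background, so the members as a group did not stand apart in either muscle. The median log2 ratio of the 10 members was 0.10 in gastrocnemius and −0.043 in TA, beside 0.020 and 0.019 over all genes tested. In bulk muscle, fewer cells of a type and less RNA per cell cannot be told apart.

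The genotype effect itself was compared between the muscles as the log2 ratio in gastrocnemius minus that in TA. By limma 0 of the 10 members and 0 of 12200 genes (0%) were called, and 1 member (*Sod2*) and 995 genes (8.16%) had an unadjusted p under 0.05. The largest of the 10 differences in size was 0.38, for *Sod2*. No member is therefore shown to respond differently in the 2 muscles, although the called members were not the same.

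The muscles themselves were compared within each genotype and dye. In WT mice 6 of the 10 members were called between gastrocnemius and TA, against 21.1% of 12200 genes. Of these, *Sod2*, *Cat*, *Txn2*, *Prdx5* and *Txnrd2* were lower in gastrocnemius (13.2% of genes), and *Gpx1* was higher (7.90%). In *Eif6*+/- mice 3 members were called, against 16.9% of genes, with *Cat* and *Sod2* lower in gastrocnemius (10.2% of genes) and *Gpx1* higher (6.67%). The median difference of the 10 members was −0.23 in WT and −0.14 in *Eif6*+/- mice, beside −0.033 and −0.026 over all genes. The genotype and muscle comparisons share the same arrays.

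**Figure D1:**
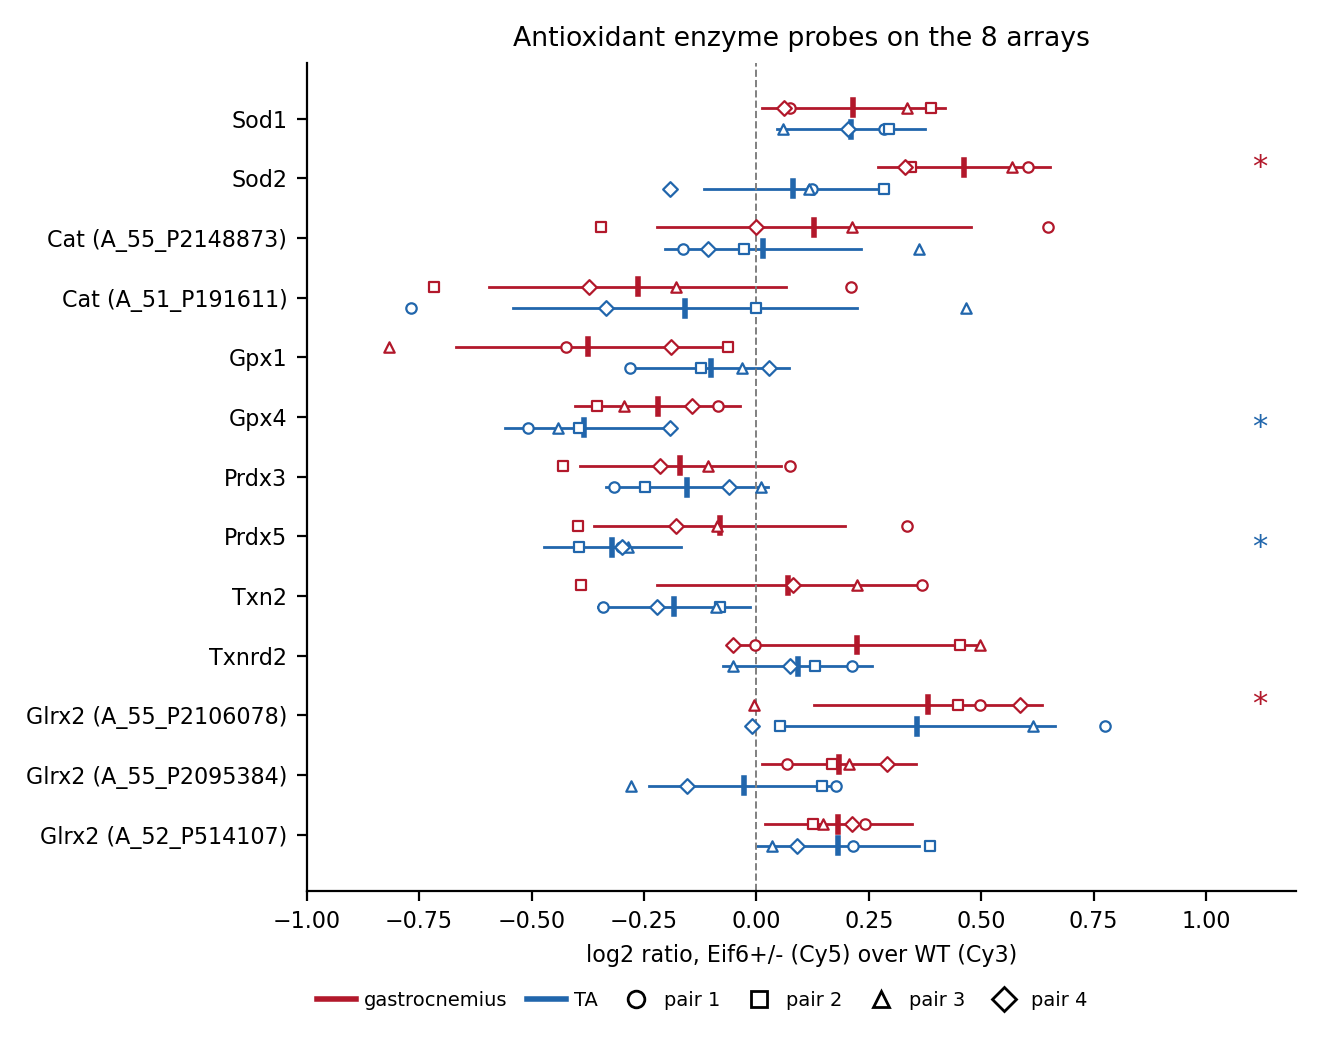
Log2 ratio of *Eif6*+/- over WT (horizontal axis) for each of the 13 probes of the 10 genes, with gastrocnemius in red and TA in blue. Open symbols are the 4 arrays of a muscle, short bars the mean, lines the 95% confidence interval from limma, and a star marks a call. The 4 gastrocnemius values of *Sod2* lie between 0.33 and 0.60, and the 4 TA values of *Prdx5* between −0.39 and −0.28.

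The sequence before the start of each gene was read for what the members share beyond the rule. RefSeq promoter windows of 250 bases upstream of the start (GRCm38.p6) were found for all 10 members, 16 windows in all, since *Gpx4* and *Glrx2* have 4 each. The windows of the 5 members higher in WT TA, of *Gpx1*, which was higher in WT gastrocnemius, and of *Sod1*, the only member with the core of the antioxidant response element, are printed because these members carry the muscle difference or that motif. They are chr17:13007589-13007838 (+) for *Sod2*, chr2:103485154-103485403 (-) for *Cat*, chr15:77928995-77929244 (-) for *Txn2*, chr19:6910107-6910356 (-) for *Prdx5*, chr16:18426167-18426416 (+) for *Txnrd2*, chr9:108338830-108339079 (+) for *Gpx1* and chr16:90220512-90220761 (+) for *Sod1*. Capitals mark matches on either strand to TGACNNNGC (the antioxidant response element core), CCAAT (the CCAAT box) or GGGCGG (the GC box). Each is written from 5′ to 3′ on the strand of its gene.
Sod2: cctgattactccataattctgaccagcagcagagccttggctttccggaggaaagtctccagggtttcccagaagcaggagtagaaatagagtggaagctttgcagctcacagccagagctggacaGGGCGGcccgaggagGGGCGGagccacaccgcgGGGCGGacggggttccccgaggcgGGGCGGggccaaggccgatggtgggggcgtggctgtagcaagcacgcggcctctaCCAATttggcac
Cat: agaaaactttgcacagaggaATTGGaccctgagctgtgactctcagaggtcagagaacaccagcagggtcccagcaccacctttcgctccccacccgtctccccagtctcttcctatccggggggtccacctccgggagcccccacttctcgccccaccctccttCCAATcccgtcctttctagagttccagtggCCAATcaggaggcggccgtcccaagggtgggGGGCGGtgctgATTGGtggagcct
Txn2: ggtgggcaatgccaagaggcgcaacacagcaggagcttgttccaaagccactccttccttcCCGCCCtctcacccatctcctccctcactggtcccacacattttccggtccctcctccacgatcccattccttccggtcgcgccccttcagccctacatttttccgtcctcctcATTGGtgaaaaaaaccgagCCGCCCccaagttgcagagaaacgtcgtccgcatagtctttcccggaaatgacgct
Prdx5: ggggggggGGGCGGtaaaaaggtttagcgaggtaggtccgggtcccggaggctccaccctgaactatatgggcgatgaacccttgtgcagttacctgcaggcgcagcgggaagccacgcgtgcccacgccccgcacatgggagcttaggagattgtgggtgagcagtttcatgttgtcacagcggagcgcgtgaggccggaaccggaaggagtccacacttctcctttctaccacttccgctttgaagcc
Txnrd2: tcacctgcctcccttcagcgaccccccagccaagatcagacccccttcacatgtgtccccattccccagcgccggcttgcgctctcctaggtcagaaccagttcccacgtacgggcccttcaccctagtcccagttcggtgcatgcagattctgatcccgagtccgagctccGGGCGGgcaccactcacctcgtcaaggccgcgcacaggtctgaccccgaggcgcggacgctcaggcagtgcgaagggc
Gpx1: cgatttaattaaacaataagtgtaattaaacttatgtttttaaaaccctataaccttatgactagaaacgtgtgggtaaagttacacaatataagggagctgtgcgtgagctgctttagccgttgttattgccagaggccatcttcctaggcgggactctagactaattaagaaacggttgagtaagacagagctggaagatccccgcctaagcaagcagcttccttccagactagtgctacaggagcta
Sod1: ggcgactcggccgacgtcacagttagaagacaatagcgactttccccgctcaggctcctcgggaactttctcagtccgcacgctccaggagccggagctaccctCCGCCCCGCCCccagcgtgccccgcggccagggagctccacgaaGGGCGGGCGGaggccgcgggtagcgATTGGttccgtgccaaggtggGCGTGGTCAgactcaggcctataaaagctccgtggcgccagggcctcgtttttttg

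GGGCGG was found in a window of 9 of the 10 members, all but *Gpx1*. Counted by window it was in 11 of the 16 windows of members and in 32.7% of all 32851 windows of the table. *Sod2* held 4 copies, from −124 to −62, and the 4 copies in *Sod1* form 2 overlapping sets. CCAAT was found for 6 members (*Sod1*, *Sod2*, *Cat*, *Gpx4*, *Txn2* and *Glrx2*), in 9 of the 16 windows of members and in 33.8% of all windows, and *Cat* held 4 copies. TGACNNNGC was found for *Sod1* alone, at −56 to −48, so in 1 of the 16 windows of members, and in 10.2% of all windows. The *Gpx1* window, which matched none of the 3 motifs, had a GC content of 42.0%, beside 57.6% to 66.4% in the other 6 printed windows and a median of 52.4% over all windows. A match is a match of letters only, and its absence says only that these letters are not in the window.

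*Sod2* encodes the manganese superoxide dismutase of the mitochondrial matrix. In gastrocnemius its level was 14.06, 14.08, 13.83 and 14.19 in the WT mice of pairs 1 to 4 and 14.66, 14.42, 14.39 and 14.52 in their *Eif6*+/- partners. The 4 *Eif6*+/- values all lay above the 4 WT values. The log2 ratios were 0.60, 0.34, 0.57 and 0.33, with a mean of 0.46 ± 0.14 (mean ± SD of 4 pairs, standard error 0.0816, adjusted p = 0.0357), a 1.38-fold higher level. The call was lost without pair 3 (adjusted p 0.142) or pair 4 (0.156), where no gene was called, and narrowly with Agilent's processed signals (0.1003), and over all alternatives the adjusted p lay between 0.0114 (SAM) and 0.156.

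In TA the level of *Sod2* was 14.62, 14.62, 14.54 and 14.92 in WT and 14.74, 14.90, 14.66 and 14.73 in *Eif6*+/- mice. The groups overlapped and the WT mouse of pair 4 had the highest value of all. The mean log2 ratio was 0.08 ± 0.20 (SD of 4 pairs, adjusted p = 0.573, 95% interval −0.12 to 0.28). The difference between the muscles in the log2 ratio was 0.38 (95% interval 0.11 to 0.65), with a limma adjusted p of 0.636.

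With all 8 arrays *Sod2* was also the member with the largest difference between the WT muscles, ahead of *Gpx1* (0.61). With each array left out, the difference ranged from −0.688 to −0.556 for *Sod2* and from 0.488 to 0.691 for *Gpx1*. Their order therefore did not hold throughout. The WT level of *Sod2* was 14.04 ± 0.15 (SD, n = 4) in gastrocnemius and 14.67 ± 0.17 in TA, and the 2 groups did not overlap. The difference of −0.64 (adjusted p = 0.00899) is a 1.55-fold higher level in TA. In *Eif6*+/- mice the difference was −0.26 (adjusted p = 0.0735), and the call was lost for 6 of the 8 arrays when each was left out and with Aquantile scaling (0.110), with an adjusted p up to 0.174. In the order of the 4 groups, WT gastrocnemius (14.04) was lowest and was followed by *Eif6*+/- gastrocnemius (14.50), WT TA (14.67) and *Eif6*+/- TA (14.76), of which only WT gastrocnemius did not overlap its neighbour.

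*Sod1* encodes the copper and zinc superoxide dismutase of the cytosol and the mitochondrial intermembrane space. Its log2 ratio lay above 0 on all 8 arrays, between 0.06 and 0.39 in gastrocnemius and between 0.06 and 0.29 in TA. The means were 0.22 ± 0.17 (SD of 4 pairs, adjusted p = 0.171) and 0.21 ± 0.11 (SD of 4 pairs, adjusted p = 0.109), past the threshold in neither muscle. With SAM in place of limma, or with no filter on dim probes, *Sod1* was called in TA, with an adjusted p of 0.0914 and 0.0889, and over all alternatives it reached 0.331. Its level did not differ between the muscles beyond the spread of replicates in WT mice (0.01, adjusted p = 0.961, 95% interval −0.21 to 0.23).

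*Cat* encodes catalase, the peroxisomal enzyme that splits hydrogen peroxide. With its brighter probe (A_55_P2148873) the level in gastrocnemius was 8.28, 9.14, 8.97 and 8.88 in WT and 8.93, 8.79, 9.19 and 8.88 in *Eif6*+/- mice. In TA it was 9.56, 9.40, 8.96 and 9.50 in WT and 9.39, 9.38, 9.32 and 9.39 in *Eif6*+/- mice. WT mice of pair 1 in gastrocnemius and of pair 3 in TA lay well below the other WT mice of their muscle, and those 2 arrays gave the highest log2 ratios, 0.65 and 0.36. The mean log2 ratio was 0.13 ± 0.42 (SD of 4 pairs, adjusted p = 0.620) in gastrocnemius and 0.015 ± 0.24 (SD of 4 pairs, adjusted p = 0.933) in TA. The dimmer probe (A_51_P191611) had means on the other side of 0, −0.26 ± 0.39 (SD of 4 pairs) and −0.16 ± 0.52 (SD of 4 pairs), also uncalled, but put the 4 gastrocnemius arrays in the same order, from −0.72 on pair 2 to 0.21 on pair 1. Without gastrocnemius pair 1 the mean of the brighter probe was −0.045, and that of the dimmer probe was −0.42 and called (adjusted p 0.0880).

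Between the muscles *Cat* was higher in TA in both genotypes. The difference of gastrocnemius minus TA was −0.54 in WT (adjusted p = 0.0968) and −0.42 in *Eif6*+/- mice (adjusted p = 0.0193), a 1.45-fold and a 1.34-fold higher level in TA. The ranges of the 2 muscles overlapped in WT and were apart in *Eif6*+/- mice, whose 4 TA values spanned 9.32 to 9.39. The dimmer probe gave −0.24 (adjusted p = 0.537) in WT and −0.35 (adjusted p = 0.0384) in *Eif6*+/- mice. The WT call was lost for 6 of the 8 arrays when each was left out (adjusted p between 0.134 and 0.203), with Aquantile scaling (0.114) and with Agilent's processed signals (0.149), while the *Eif6*+/- call held without each array (0.00533 to 0.0605).

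*Gpx1* encodes the glutathione peroxidase of cytosol and mitochondria. In gastrocnemius its level was 13.10, 12.85, 13.42 and 12.81 in WT and 12.67, 12.78, 12.60 and 12.62 in *Eif6*+/- mice. Every *Eif6*+/- value lay below every WT value, and the WT mouse of pair 3 stood highest. The log2 ratios of −0.42, −0.06, −0.82 and −0.19 had a mean of −0.37 ± 0.33 (mean ± SD of 4 pairs, standard error 0.125, adjusted p = 0.118), past the threshold without pair 2 (−0.48, 0.0954), with loess alone (0.0970), with the deposited ratios (0.0986) and with SAM (0.0695), and −0.23 without pair 3, where the adjusted p was highest over all alternatives (0.317). In TA the mean was −0.10 ± 0.13 (SD of 4 pairs, adjusted p = 0.416, 95% interval −0.28 to 0.07).

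Unlike the other members with a called muscle difference, *Gpx1* was higher in gastrocnemius. The difference was 0.61 in WT (adjusted p = 0.0205, 1.53-fold) and 0.34 in *Eif6*+/- mice (adjusted p = 0.0306, 1.27-fold). Both calls held under every normalization tried and without each array. In the order of the groups, *Eif6*+/- TA (12.33) and WT TA (12.43) overlapped, and *Eif6*+/- gastrocnemius (12.67) and WT gastrocnemius (13.04) each lay above their lower neighbour with no overlap.

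*Gpx4* encodes the glutathione peroxidase that reduces lipid peroxides in membranes. In TA its level was 14.06, 13.97, 13.86 and 13.88 in WT and 13.55, 13.57, 13.42 and 13.69 in *Eif6*+/- mice. The *Eif6*+/- values all lay below the WT values. The log2 ratios were −0.51, −0.40, −0.44 and −0.19, with a mean of −0.38 ± 0.14 (mean ± SD of 4 pairs, standard error 0.0763, adjusted p = 0.0330), 0.766 of the WT level. The call was lost without pair 1 (adjusted p 0.177) or pair 2 (0.103), and over all alternatives the adjusted p lay between 0.0220 and 0.177.

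In gastrocnemius the level of *Gpx4* was 13.83, 14.03, 13.95 and 13.95 in WT and 13.74, 13.68, 13.66 and 13.81 in *Eif6*+/- mice. The groups did not overlap here either, although the mean log2 ratio of −0.22 ± 0.13 (SD of 4 pairs, adjusted p = 0.134) was past the threshold only with SAM (0.0850). The difference between the muscles was 0.16 (95% interval −0.07 to 0.40, limma adjusted p = 0.709). *Gpx4* was the only member whose *Eif6*+/- groups both lay below both WT groups, with means of 13.56 and 13.72 beside 13.94 and 13.94. *Sod1* and *Glrx2* (brightest probe) had the opposite order of means, with both *Eif6*+/- groups above both WT groups and with overlapping ranges. The share of all genes with such orders was not counted, and dye and genotype cannot be told apart. Its WT level did not differ detectably between the muscles (−0.0032, adjusted p = 0.985, 95% interval −0.18 to 0.17).

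*Prdx5* encodes a peroxiredoxin of mitochondria, peroxisomes and cytosol. In TA its level was 13.02, 13.08, 12.74 and 13.18 in WT and 12.72, 12.69, 12.46 and 12.88 in *Eif6*+/- mice. The groups overlapped, but within each pair the *Eif6*+/- level was the lower. Levels were lowest on pair 3 and highest on pair 4 in both channels, and whether mice or arrays differed there was not tested. The log2 ratios were −0.30, −0.39, −0.28 and −0.30, with a mean of −0.32 ± 0.05 (mean ± SD of 4 pairs, standard error 0.0666, adjusted p = 0.0363), 0.801 of the WT level. The call was lost without pair 1 (adjusted p 0.161) or pair 2 (0.119) and with Agilent's processed signals (0.101), and over all alternatives the adjusted p lay between 0.0225 and 0.161.

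In gastrocnemius the log2 ratios of *Prdx5* were 0.34, −0.40, −0.09 and −0.18. They lay on both sides of 0 with a mean of −0.08 ± 0.31 (SD of 4 pairs, adjusted p = 0.698), and without pair 2 the mean was 0.023. The difference between the muscles was 0.24 (95% interval −0.07 to 0.55, limma adjusted p = 0.685). In WT mice *Prdx5* was 1.29-fold higher in TA (−0.37, adjusted p = 0.0997), a call lost for 5 of the 8 arrays when each was left out (0.161 to 0.225), with no background correction (0.106) and with Agilent's processed signals (0.142). In *Eif6*+/- mice the muscles differed by −0.13 (adjusted p = 0.491).

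*Prdx3* encodes the peroxiredoxin of the mitochondrial matrix, and its probe had 10 spots on each array. Its log2 ratio lay below 0 on 6 of 8 arrays, with a mean of −0.17 ± 0.21 (SD of 4 pairs, adjusted p = 0.303) in gastrocnemius and −0.15 ± 0.15 (SD of 4 pairs, adjusted p = 0.243) in TA. Its level was lower in gastrocnemius by −0.19 in WT (adjusted p = 0.297) and −0.20 in *Eif6*+/- mice (adjusted p = 0.110) without a call, and the *Eif6*+/- difference was called without TA pair 2 (−0.25, 0.0895) and with Aquantile scaling (0.0986), with an adjusted p up to 0.241 over the alternatives.

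*Txn2* encodes mitochondrial thioredoxin, which reduces *Prdx3* and *Prdx5* proteins. Its WT level was 13.06, 13.50, 13.30 and 13.43 in gastrocnemius and 13.92, 13.74, 13.61 and 13.91 in TA. All 4 TA values lay above all 4 gastrocnemius values, and the difference of −0.47 (adjusted p = 0.0294) is a 1.39-fold higher level in TA that was called under every alternative. In *Eif6*+/- mice the difference was −0.22 (adjusted p = 0.178). By genotype *Txn2* was not called, with a mean of 0.07 ± 0.33 (SD of 4 pairs, adjusted p = 0.753) in gastrocnemius and −0.18 ± 0.12 (SD of 4 pairs, adjusted p = 0.157) in TA, where all 4 arrays lay below 0. The gastrocnemius mean was −0.028 without pair 1.

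*Txnrd2* encodes the mitochondrial thioredoxin reductase, which returns *Txn2* protein to its reduced state. Its WT level was 11.50, 11.17, 11.22 and 11.51 in gastrocnemius and 11.56, 11.58, 11.70 and 11.66 in TA. The groups were apart by a small gap, and the difference of −0.27 (adjusted p = 0.0981, 1.21-fold higher in TA) was the smallest of the 6 calls. It was lost for 6 of the 8 arrays when each was left out (adjusted p between 0.123 and 0.227), with no background correction (0.112), with Agilent's processed signals (0.142) and with quantile normalization without control spots (0.102). By genotype it was not called, with a mean of 0.22 ± 0.29 (SD of 4 pairs, adjusted p = 0.263) in gastrocnemius and 0.09 ± 0.11 (SD of 4 pairs, adjusted p = 0.445) in TA.

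*Glrx2* encodes the mitochondrial glutaredoxin, which removes glutathione from protein thiols. With its brightest probe (A_55_P2106078) the level in gastrocnemius was 16.46, 16.40, 16.55 and 16.42 in WT and 16.96, 16.85, 16.55 and 17.00 in *Eif6*+/- mice. The *Eif6*+/- mice of pairs 1, 2 and 4 stood above all WT mice and that of pair 3 did not. The mean log2 ratio was 0.38 ± 0.26 (mean ± SD of 4 pairs, standard error 0.108, adjusted p = 0.0817), a 1.30-fold higher level as the mean of all 4 arrays. The call was lost without each array in turn (adjusted p 0.153, 0.157, 0.121 and 0.267 without pairs 1 to 4), with the normexp offset at 0 (0.119) and with Agilent's processed signals (0.144), and over all alternatives the adjusted p lay between 0.0439 (SAM) and 0.267.

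The same probe of *Glrx2* in TA gave a level of 16.06, 16.85, 16.33 and 16.91 in WT and 16.84, 16.90, 16.95 and 16.90 in *Eif6*+/- mice. The *Eif6*+/- values were close together, and the WT mice of pairs 1 and 3 lay well below the rest. The mean log2 ratio of 0.36 ± 0.40 (SD of 4 pairs, adjusted p = 0.130) was past the threshold without pair 4 (0.48, 0.0751), with loess alone (0.0344), with the deposited ratios (0.0359) and with SAM (0.0832), and was 0.22 without pair 1, where the adjusted p was highest over all alternatives (0.442). This spot was among the brightest, with 31 to 87 of 55681 probes above it on any array, and it was not saturated. The other *Glrx2* probes were far dimmer. A_55_P2095384 had 3969 to 4751 probes above it, and A_52_P514107 had 19438 to 23309. The raw Cy3 (WT) signal was 41789 to 80726.5 for the brightest probe. It was 878.5 to 1757 for A_55_P2095384 and 49 to 67 for A_52_P514107. Whether the signal of the brightest probe comes from *Glrx2* RNA alone was not tested.

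Probe A_55_P2095384 of *Glrx2* had a mean of 0.18 ± 0.09 (SD of 4 pairs, adjusted p = 0.168) in gastrocnemius, above 0 on all 4 arrays, and −0.028 ± 0.22 (SD of 4 pairs, adjusted p = 0.873) in TA. Between the WT muscles this probe was lower in gastrocnemius by −0.40 (adjusted p = 0.0211), whereas the brightest gave −0.08 (adjusted p = 0.804). Probe A_52_P514107 was well above background in *Eif6*+/- mice on all 4 arrays of each muscle, but in WT mice on 1 of 4 gastrocnemius and 2 of 4 TA arrays, and it passed the filter through the *Eif6*+/- channel. Its mean log2 ratio of 0.18 in each muscle rests on a WT level near background, lay between 0.16 and 0.91 in gastrocnemius over the alternatives, and is not a measured fold.

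**Figure D2:**
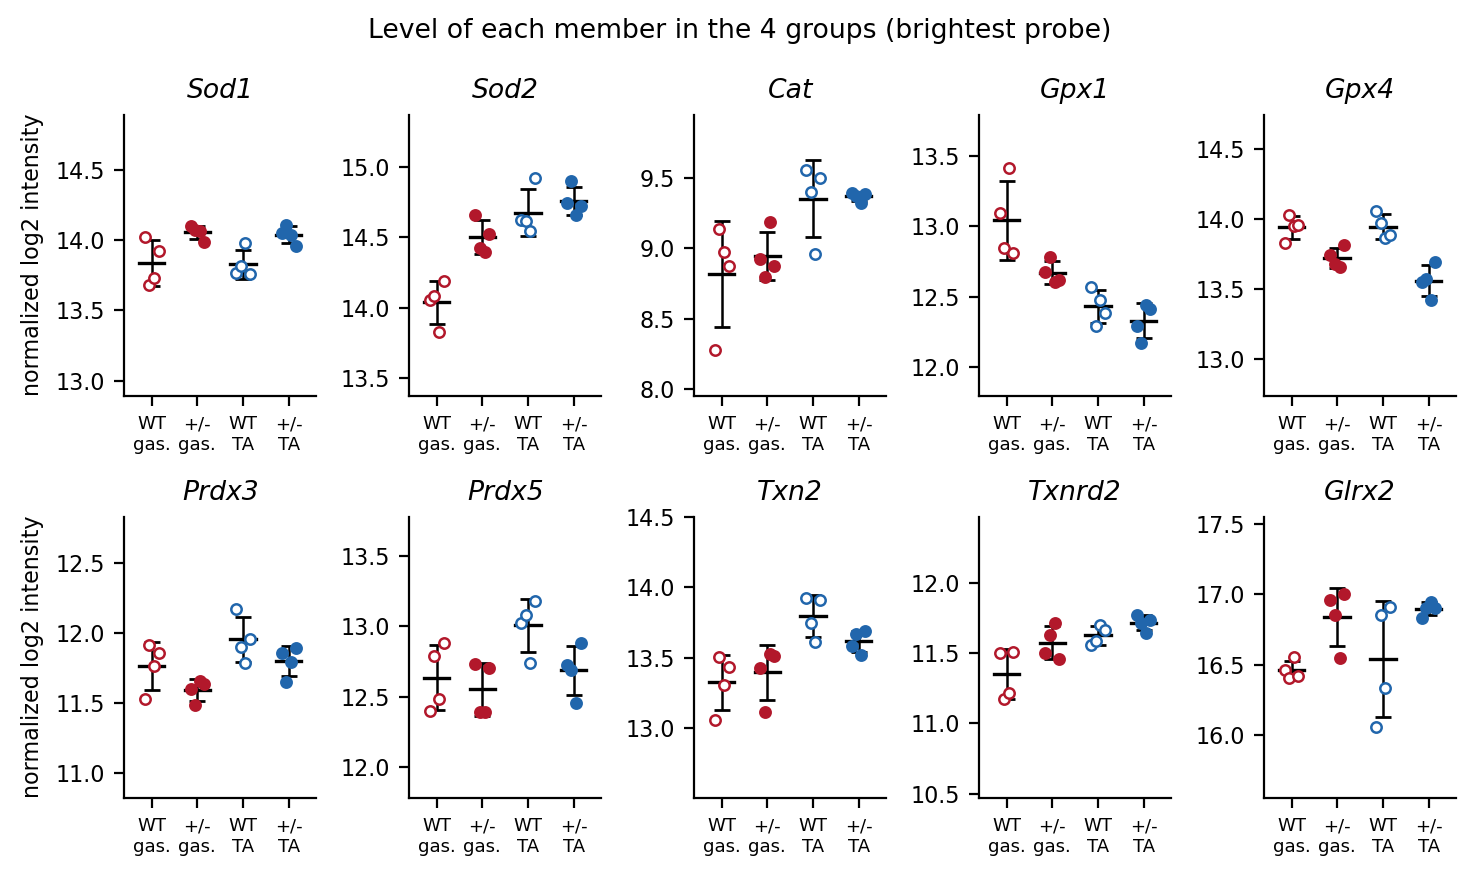
Normalized log2 intensity (vertical axis, each panel spans 2 units) of the brightest probe of each gene in WT (open) and *Eif6*+/- (filled) mice, with gastrocnemius in red and TA in blue. Points are mice and bars are the mean with 1 SD (n = 4). The *Eif6*+/- points of *Gpx4* lie below the WT points in both muscles, and WT gastrocnemius is lowest for *Sod2* and highest for *Gpx1*.

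Most of these enzymes act in mitochondria in whole or part, so the members were set beside 10 reference genes of mitochondria (*Cs*, *Vdac1*, *Vdac2*, *Tomm20*, *Hspd1*, *Cox4i1*, *Atp5a1*, *Uqcrc2*, *Sdhb* and *Ndufs3*). In gastrocnemius 8 of these 10 were called higher in *Eif6*+/- mice, with a median of 0.40 and a median per array of 0.47, 0.25, 0.42 and 0.31 for pairs 1 to 4. *Sod2* lay above that median on every array (0.60, 0.34, 0.57 and 0.33), while *Gpx1*, *Gpx4*, *Prdx3* and *Prdx5* had means below 0. In TA 3 of the 10 were called higher and 1 (*Cox4i1*) lower, with a median of 0.18, and the called members *Gpx4* and *Prdx5* were on the lower side. Between the WT muscles 9 of the 10 were lower in gastrocnemius, with a median of −0.41, beside −0.64 for *Sod2*, −0.54 for *Cat*, −0.47 for *Txn2*, −0.37 for *Prdx5* and −0.27 for *Txnrd2*. Among the other members *Gpx1* was called higher in gastrocnemius (0.61). *Prdx3* (−0.19), *Glrx2* (−0.08 with its brightest probe), *Gpx4* (−0.0032) and *Sod1* (0.01) were not called. The probes of *Glrx2* differed here. Probe A_55_P2095384 was called lower in WT gastrocnemius (−0.40, limma adjusted p = 0.0211), and the dim probe A_52_P514107 was not called (−0.049, limma adjusted p = 0.756). In *Eif6*+/- mice 1 of the 10 reference genes (*Vdac2*) was lower, with a median of −0.087. The brightest of the list, *Cs*, gave 0.40 (adjusted p = 0.0399) in gastrocnemius, 0.24 (0.0926) in TA and −0.22 (0.0917) between the WT muscles. The part of mitochondrial content in the values of the members was not tested.

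**Figure D3:**
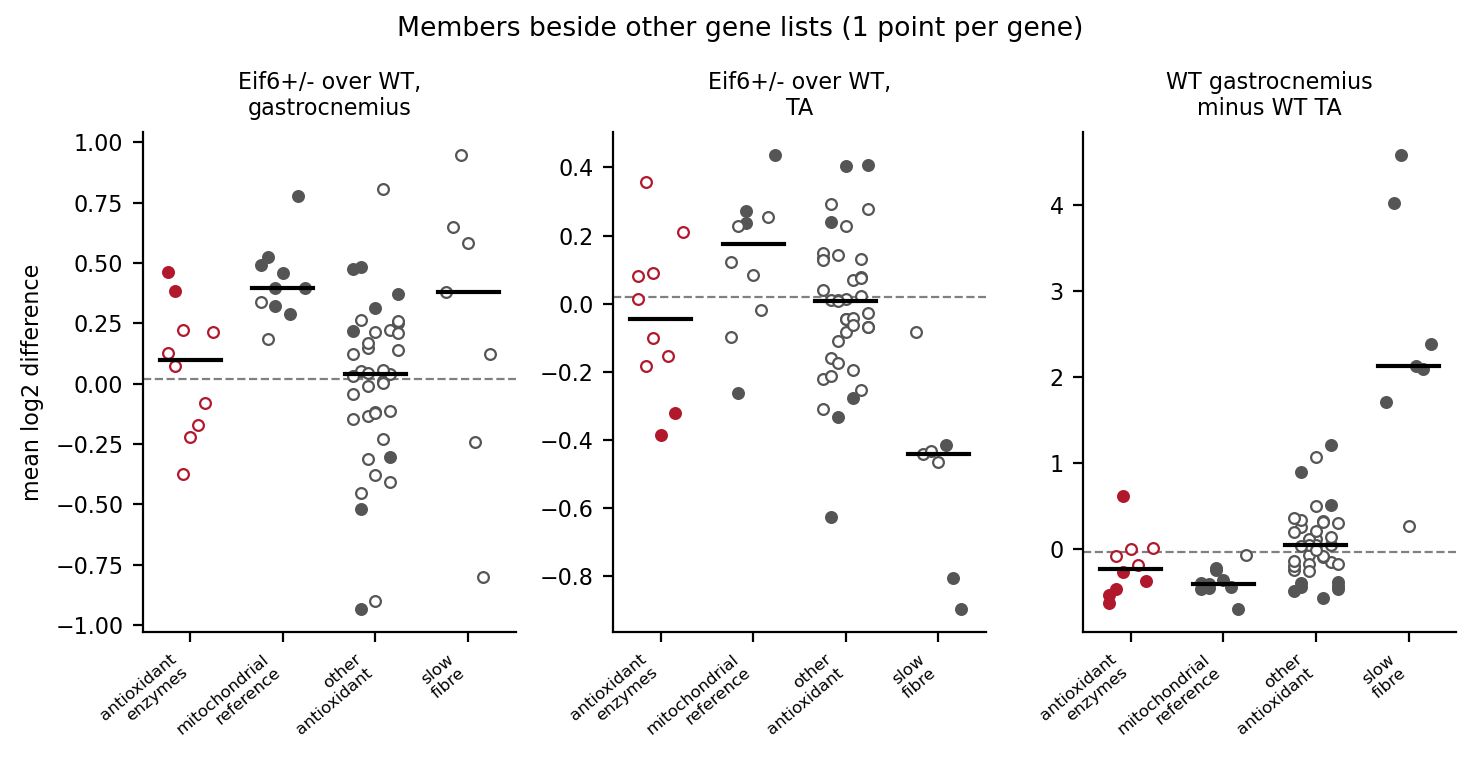
Mean log2 ratio by genotype in gastrocnemius (left) and TA (middle) and mean log2 difference between the WT muscles (right) for the 10 members (red), the mitochondrial reference genes, the other antioxidant genes and the slow fibre genes (grey). Each point is a gene, filled where called, the black bar is the median of its list and the dashed line the median of all genes. The members spread from −0.37 to 0.46 in gastrocnemius, and the mitochondrial reference genes all lie above 0 there.

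Slow fibre genes were set beside the members array by array. In gastrocnemius the median log2 ratio of 7 slow fibre genes was 2.71 on pair 1, −1.29 on pair 2, −0.26 on pair 3 and −0.34 on pair 4, with 0 of the 7 called, and the brightest, *Myl3*, had a mean of 0.58 (adjusted p = 0.564). *Cat* (0.65), *Prdx5* (0.34), *Txn2* (0.37) and *Prdx3* (0.08) were highest on that same pair 1, and *Cat* (−0.35), *Prdx5* (−0.40), *Txn2* (−0.39) and *Prdx3* (−0.43) were lowest on that same pair 2. *Sod1* (0.39) was highest on pair 2, and *Txnrd2* was 0.45 there and −0.0041 on pair 1. *Gpx1* was also highest on pair 2 (−0.06), and *Glrx2* was highest on pair 4 (0.59) and lowest on pair 3 (−0.0050). *Gpx4* was highest on pair 1 (−0.09) and lowest on pair 2 (−0.35), and *Sod2* was highest on pair 1 (0.60) and lowest on pair 4 (0.33). In TA the slow fibre medians were −0.20, −0.68, −0.076 and −1.35 on pairs 1 to 4, lowest on pair 4, whereas *Cat*, *Txn2* and *Prdx3* were lowest on pair 1 and *Prdx5* on pair 2. The mean level of the slow fibre genes in WT gastrocnemius was 10.15, 11.94, 11.78 and 13.35. In TA 3 of the 7 were called lower in *Eif6*+/- mice (*Tnnt1*, *Tnni1* and *Tnnc1*, list median −0.44). Between the muscles 6 of the 7 were higher in WT gastrocnemius (median 2.12) and 7 of 7 in *Eif6*+/- gastrocnemius (median 2.30). That side is opposite to *Sod2*, *Cat*, *Txn2*, *Prdx5* and *Txnrd2* and the same as *Gpx1* (0.61 in WT and 0.34 in *Eif6*+/- mice). *Myh2*, the gene of IIA fibres, was not called by genotype (1.62 in gastrocnemius, adjusted p = 0.104, with 3.92 on pair 1 and 0.52, 1.41 and 0.62 on pairs 2 to 4, and 0.048 in TA). By limma *Myh2* was higher in *Eif6*+/- gastrocnemius than TA (1.99, adjusted p = 0.00462) but was not called between the WT muscles (0.42, adjusted p = 0.761). The part of fibre types in these values was not tested.

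*Gpx1* was set beside markers of leukocytes, connective tissue and adipocytes. In gastrocnemius its log2 ratio was lowest on pair 3 (−0.82), followed by pair 1 (−0.42), pair 4 (−0.19) and pair 2 (−0.06). The median log2 ratio of the 3 leukocyte markers tested had the same order, −1.97, −1.22, −0.12 and 0.20, and that of 6 connective tissue genes was −1.03, −0.28, 0.026 and 0.17. The median of 5 adipocyte genes did not have this order, with −0.33, −0.13, −1.03 and 0.047 on pairs 3, 1, 4 and 2. In TA, where the leukocyte markers tested were not the same set, *Gpx1* was at −0.28, −0.12, −0.03 and 0.03 on pairs 1 to 4, the median of the 5 leukocyte markers tested there at 0.026, −0.24, 0.11 and −0.22 and the connective tissue median at 0.29, −0.69, 1.37 and −0.29. The adipocyte median in TA was 0.56, −0.15, 1.36 and 0.53 on pairs 1 to 4. Of the leukocyte and connective tissue lists 1 gene was called in gastrocnemius, *Cd74*, the brightest leukocyte marker tested, at −1.10 (limma adjusted p = 0.0450). *Col1a2*, the brightest connective tissue gene, gave −0.13 (limma adjusted p = 0.788). Among the adipocyte genes *Cfd* and *Adipoq* were called lower there. The mean level of the leukocyte markers in the WT mice of gastrocnemius pairs 1 to 4 was 9.71, 8.79, 10.43 and 8.68, and 3 to 6 leukocyte markers per gastrocnemius array and channel were well above background. Between the WT muscles, where *Gpx1* was higher in gastrocnemius, 4 of 6 connective tissue genes were too (median 0.94), as were 5 of 5 adipocyte genes (median 2.38), and 0 of 3 leukocyte markers were called (median 0.79). *Gpx1* was also higher in *Eif6*+/- gastrocnemius than TA (0.34). There 1 of 6 connective tissue genes (median 0.44), 4 of 5 adipocyte genes (median 1.57) and 1 of 3 leukocyte markers (median 0.15) were called higher. The part of these cells in the *Gpx1* values was not tested.

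Other genes of antioxidant defence were taken from a list of 43, of which 42 had a probe (*Nnt* had none) and 39 were tested. In gastrocnemius 8 of the 39 were called, against 15.4% of all genes, with *Prdx6* (0.48), *Gstk1* (0.48), *Srxn1* (0.37), *Txnrd3* (0.31) and *Ccs* (0.22) higher and *Gpx3* (−0.94), *G6pdx* (−0.52) and *Keap1* (−0.30) lower. In TA 6 were called, against 16.3% of all genes, with *Me1* (0.41), *Txnrd3* (0.40) and *Prdx6* (0.24) higher and *Gpx3* (−0.62), *Gstp1* (−0.33) and *Glrx* (−0.28) lower. The medians of 0.039 and 0.0067 lay beside 0.10 and −0.043 for the members. The brightest probe of *Prdx6* stood alone, since its other 2 kept probes gave −0.14 and −0.095 in gastrocnemius and −0.40 and −0.37 in TA. No gene of the 39 was called for the difference between the muscles by limma. *Gpx3* encodes the secreted glutathione peroxidase, *Srxn1* the sulfiredoxin that repairs overoxidized peroxiredoxins, *Ccs* the copper chaperone of the *Sod1* protein, and *Keap1* the repressor of the transcription factor encoded by *Nfe2l2*.

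The counts by group stand beside 15.4% of all genes called by genotype in gastrocnemius and 16.3% in TA. By group, 1 of 2 genes of the other superoxide dismutase and its chaperone was called in gastrocnemius and 0 of 2 in TA. Of the other peroxidases 2 of 8 were called in each muscle, of the other thioredoxin and glutaredoxin genes 2 of 8 in each, and of the genes of glutathione synthesis, recycling and transfer 1 of 10 in each. Of the *Nfe2l2* axis and sestrins 1 of 7 was called in gastrocnemius and 0 of 7 in TA, and of the genes of NADPH supply 1 of 4 in each. Between the WT muscles 10 of the 39 were called, against 21.1% of all genes, with *Sod3*, *G6pdx* and *Keap1* higher in gastrocnemius, as *Gpx1* was, and *Glrx*, *Gstk1*, *Gsta4*, *Prdx6*, *Glrx5*, *Mgst3* and *Prdx2* higher in TA, as *Sod2* was. In *Eif6*+/- mice 6 were called, against 16.9% of all genes, with *Idh2*, *Sod3*, *G6pdx*, *Keap1* and *Gclc* higher in gastrocnemius and *Glrx* higher in TA. Without gastrocnemius pair 3 or pair 4, and without TA pair 1, 0 of the 39 were called by genotype in that muscle.

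**Figure D4:**
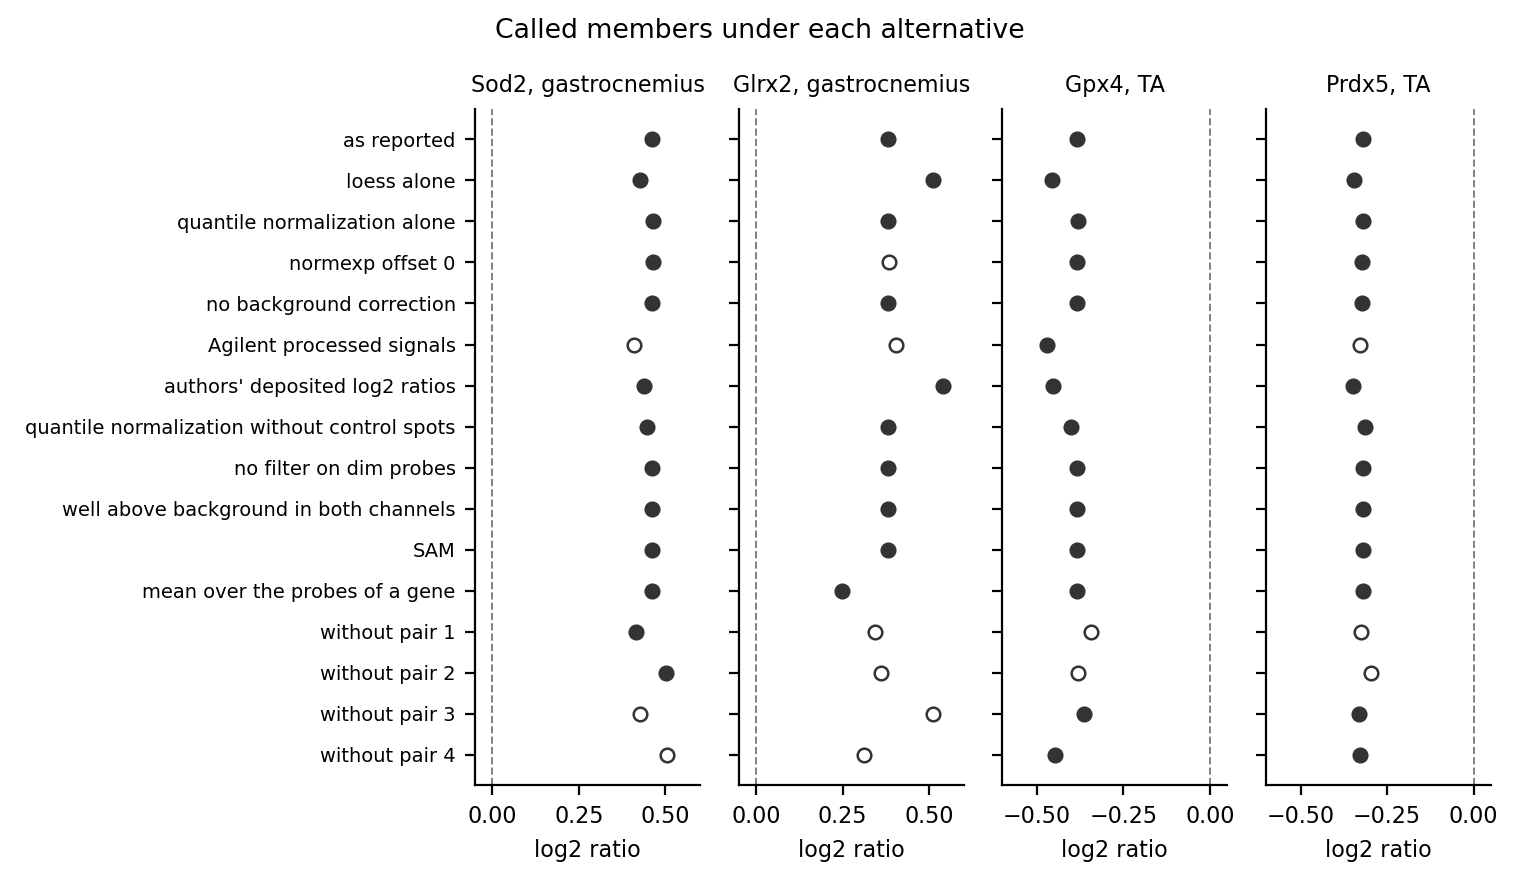
Mean log2 ratio (horizontal axis) of the 4 called members under each way of processing and without each pair (vertical axis). Points are filled where the gene was called at an adjusted p under 0.1. All values keep their direction, and the calls of *Sod2*, *Glrx2*, *Gpx4* and *Prdx5* are lost in 3, 6, 2 and 3 of the settings shown.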

How the data were processed

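The authors deposited scanner output with spot signal and background as intensity, and other values (0 or 1 quality marks per spot), and a table of log2 ratios of Cy5 over Cy3 per spot. That deposited log2 table matches loess of uncorrected intensities (r 0.999963 to 0.999996), and its column medians were 0.00257, 0.000831, −0.00441 and 0.00375 (gastrocnemius pairs 1 to 4) and 0.00138, −0.000366, 0.00288 and 0.00212 (TA). The labels give Cy5 and Cy3, the paper's methods Cy3 alone.

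Median intensities were corrected with normexp (offset 50), loess-normalized within arrays, then quantile-normalized over 16 channels. Outlier spots were left out, spots of a probe averaged, and probes kept for a muscle if either channel was well above background on each of its 4 arrays (gastrocnemius 23802 probes, TA 23391, 22765 for comparisons of muscles). Of 55681 probes, 28685 had a RefSeq accession and 27235 matched a gene. Tests were limma 3.58.1 lmFit and eBayes (R 4.3.3), 2-sided, with Benjamini-Hochberg adjustment over kept probes and a threshold of 0.1, and were tested on simulated data. SAM was written here with all sign changes and the same cutoff on either side of 0, and its q values are printed as adjusted p. Figures were drawn with matplotlib 3.10.9 (Python 3.11.15).

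Named genes were *Eif6*, all members with every probe, called genes of the other antioxidant list, and, per marker list (skeletal muscle, slow, IIA and fast fibre, mitochondria, red blood cell, leukocyte, adipocyte, connective tissue, endothelium), counts, median, brightest and called genes. The results of 1 further marker list are not given. A gene was counted by its brightest probe. Members and lists were chosen with earlier results of these data known. Alternatives were other background corrections, normalizations, filters, signals, tests, thresholds and each array left out. Quantile normalization without control spots was chosen after seeing the data.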

Additional observations from a re-analysis of the deposited data

Results flagged for a closer look

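Of 90 groups of 4 arrays examined for a value far from the other 3, 2 had one, and chance gives about 1 in 20. The level of *Glrx2* with the dim probe A_52_P514107 was 6.52 in the WT gastrocnemius of pair 3, beside 6.39 to 6.40 in the other WT mice of that muscle. The log2 ratio of *Prdx5* in TA was −0.39 on pair 2, beside −0.30 to −0.28 on the other TA arrays.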

How the results depend on the processing

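All 4 called genotype effects kept their direction under every alternative. Members called in gastrocnemius numbered 1 with the normexp offset at 0 (*Sod2*, with 1449 of 12609 genes called), 0 with Agilent's processed signals (1204 genes), 4 with SAM (adding *Gpx1* and *Gpx4*, 3195 genes) and 1 at an adjusted p under 0.05 (*Sod2*, 626 genes), beside 1939 genes in the main processing. Without 1 pair they numbered 0 to 2, with 1766, 1351, 0 and 0 genes called without pairs 1 to 4 (limma, unadjusted p under 0.05 in 2424 and 2649 genes without pairs 3 and 4). In TA they numbered 1 with Agilent's signals (*Gpx4*, 850 of 12381 genes) and 4 with SAM (adding *Sod1* and *Glrx2*, 2613 genes), beside 2014 genes in the main processing. Without 1 pair of TA they numbered 0, 0, 2 and 3, with 68, 531, 1185 and 2020 genes called. Members called between the WT muscles numbered 3 with Agilent's signals (2103 of 12200 genes), 3 at an adjusted p under 0.05 (1527 genes) and 3 to 5 without 1 array (1543 to 2595 genes), beside 2578 genes in the main processing, with *Sod2*, *Gpx1* and *Txn2* called every time. Those called between the *Eif6*+/- muscles numbered 2 to 4, and those with a different effect in the 2 muscles 0 throughout. Apart from fewer pairs and the stricter threshold, the cause was not tested.

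The pair numbers were not used as pairs across muscles, since arrays of the same number correlated at −0.145, 0.0186, −0.356 and 0.0896 across probes. With the number as a replicate block 0 members differed in their genotype effect, 4 between the WT muscles (*Gpx1*, *Prdx5*, *Sod2* and *Txn2*, with *Cat* at an adjusted p of 0.154 and *Txnrd2* at 0.158 no longer called) and 4 between the *Eif6*+/- muscles (*Cat*, *Gpx1*, *Sod2* and *Prdx3*, the last at 0.0797).

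Changes of direction affected values that were not called, and *Prdx6* in TA. With the mean over all probes the log2 ratio was −0.068 in gastrocnemius and −0.072 in TA for *Cat* and −0.18 for *Prdx6* in TA. With loess alone *Sod2* in TA was −0.010, and the difference between the muscles was −0.0061 for *Glrx2* and 0.00049 for *Prdx3*. With Agilent's signals the log2 ratio of *Glrx2* (A_55_P2095384) in TA was 0.021, the difference between the muscles −0.0065 for *Glrx2*, 0.020 for *Prdx3* and −0.00082 for *Sod1*, the WT difference of *Gpx4* 0.057 and the *Eif6*+/- difference of *Sod1* −0.0071. The difference was −0.0026 for *Glrx2* with the deposited ratios and 0.0071 for *Prdx3* with quantile normalization without control spots. The cause was not tested.

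Without 1 array the log2 ratio in gastrocnemius ranged from −0.045 to 0.29 for *Cat* (A_55_P2148873), −0.22 to 0.023 for *Prdx5* and −0.028 to 0.22 for *Txn2*. In TA it ranged from −0.0998 to 0.075 for *Cat* (A_55_P2148873), −0.37 to 0.044 for *Cat* (A_51_P191611) and −0.096 to 0.056 for *Glrx2* (A_55_P2095384). The difference between the muscles ranged from −0.060 to 0.27 for *Cat*, −0.099 to 0.16 for *Glrx2*, −0.097 to 0.072 for *Prdx3* and −0.053 to 0.056 for *Sod1*. The WT difference ranged from −0.24 to 0.045 for *Glrx2*, −0.033 to 0.035 for *Gpx4* and −0.052 to 0.063 for *Sod1*, and the *Eif6*+/- difference from −0.11 to 0.041 for *Glrx2*, −0.11 to 0.0097 for its probe A_52_P514107 and −0.011 to 0.038 for *Sod1*. The SAM alternative was not run for the differences between muscles. Signal over background limits the dim *Glrx2* probe A_52_P514107, whose log2 ratio in gastrocnemius lay between 0.16 and 0.91 over the alternatives.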

Other observations

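Further marker lists were measured on the same arrays as the members. Of 7 skeletal muscle genes, *Des* and *Ckm* were lower in *Eif6*+/- gastrocnemius (list median 0.023), and in TA *Mb* and *Des* were lower and *Myh4* higher (median −0.042). Of 7 fast fibre genes, *Myh1* was higher and *Atp2a1* and *Actn3* lower in gastrocnemius (median 0.23), and *Myh4* and *Tnnc2* were higher and *Atp2a1* lower in TA (median 0.049). *Myh4* stands in both lists. *Mb*, the gene of myoglobin, was lower in WT gastrocnemius than TA at −1.35 (adjusted p = 0.0406), on the same side as *Sod2*.

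Red blood cell genes were lower in *Eif6*+/- TA for 4 of 6 tested (*Hbb-bs*, *Hba-a1*, *Alas2* and *Hbb-bt*, median −0.65) and called for 0 of 5 in gastrocnemius (median −0.27). Their median log2 ratio in TA was −0.64, −0.95, −0.64 and −0.27 on pairs 1 to 4, beside −0.51, −0.40, −0.44 and −0.19 for *Gpx4* and −0.30, −0.39, −0.28 and −0.30 for *Prdx5*. Pair 4 was nearest to 0 for the red blood cell genes and for *Gpx4*. *Hba-a2*, the brightest of the list, gave −0.29 (adjusted p = 0.255) in TA. The part of blood in these values was not tested.

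Of 5 adipocyte genes tested, *Cfd* and *Adipoq* were lower in *Eif6*+/- gastrocnemius (median −0.24) and *Retn*, *Cidec* and *Plin1* higher in *Eif6*+/- TA (median 0.60). In TA *S100a9* was lower among 5 leukocyte markers tested (median −0.096), and 0 of 6 connective tissue genes were called (median 0.27). Of 5 endothelial genes 0 were called in gastrocnemius (median −0.040), and *Pecam1* and *Emcn* were lower in TA (median −0.16).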
